A study of Mus musculus with 10 samples.

Results

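Rab proteins are small GTPases that mark the membranes of the cell and direct vesicles between them. An exchange factor loads a Rab with GTP on its membrane, the GTP-bound form recruits effectors that move, tether or fuse vesicles, and a GTPase-activating protein switches it off. Prenyl groups at the C terminus anchor Rab proteins in membranes, and GDP dissociation inhibitors carry the inactive form through the cytosol. In macrophages, Rab5, Rab20 and Rab7 act in turn on a maturing phagosome, and in cytotoxic T cells Rab27a docks lytic granules at the plasma membrane. Genes were taken as members by their symbol (Rab, a number, and at most a letter and a digit), with at least 1 TPM (transcript abundance after scaling for length, with the same total in each library) in at least 5 libraries. Of 59 Rab genes in the table, 43 met this rule, out of 13930 genes of all kinds that did.

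The series asked about phosphorylation of a serine of Pep, the phosphatase encoded by Ptpn22, in T cells inside tumours. It compared mice with wild-type Pep (WT) and mice whose Pep has alanine in place of that serine (S452A). All 10 mice, 5 per genotype, were injected at 8 weeks of age with MC38, a colon carcinoma line of the mouse, and the tumours were digested with collagenase on day 18 and sorted for CD8+ T cells, giving 1 bulk RNA library per mouse. The title and sample labels name the change S452A, the name kept here, although the design text has S425A, and strain, sex and the cells carrying the change are not stated. The label of the sorted cells was checked against marker genes. The 8 CD8 T cell markers (such as Cd3e and Cd8a) summed to 12.1 to 126 TPM in WT and 15.0 to 135 TPM in S452A. The 11 macrophage and monocyte markers (such as C1qa, Csf1r and Apoe) summed to 18065 to 25055 TPM and 18890 to 24465 TPM. The 15 fibroblast and pericyte markers summed to 265 to 507 TPM and 164 to 352 TPM. Markers of neutrophils and dendritic cells summed to at most 87.4 TPM in any library, those of B cells to at most 20.5, of epithelial cells to at most 5.22 and of NK cells to at most 1.93, with Ly6g listed at 0 in all 10 libraries. The Rab levels below are therefore those of libraries dominated by macrophage transcripts, in both genotypes. In such bulk samples, fewer cells of a type and less RNA per cell cannot be told apart.

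Rab transcripts were abundant and varied little from mouse to mouse. The 43 genes summed to 2017 ± 124 TPM in WT, against 2122 ± 191 TPM in S452A (SD, n = 5), from 1889 in S452A library 2 to 2366 in S452A library 3. Their median level was 37.7 TPM, against 12.1 TPM over all 13930 genes. In all, 5 members averaged at least 100 TPM, 26 averaged 10 to 100 TPM and 12 were below 10 TPM, and 38 of the 43 reached 1 TPM in all 10 libraries. The median coefficient of variation over the 10 libraries was 14.3% for the members, from 6.14% for Rab2a to 66.9% for Rab3a. Among genes averaging at least 20 TPM it was 13.2% for the 30 members at that level and 16.3% for all 5198 genes. The depth of the libraries is unknown, so no counting interval can be given.

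**Figure D1:**
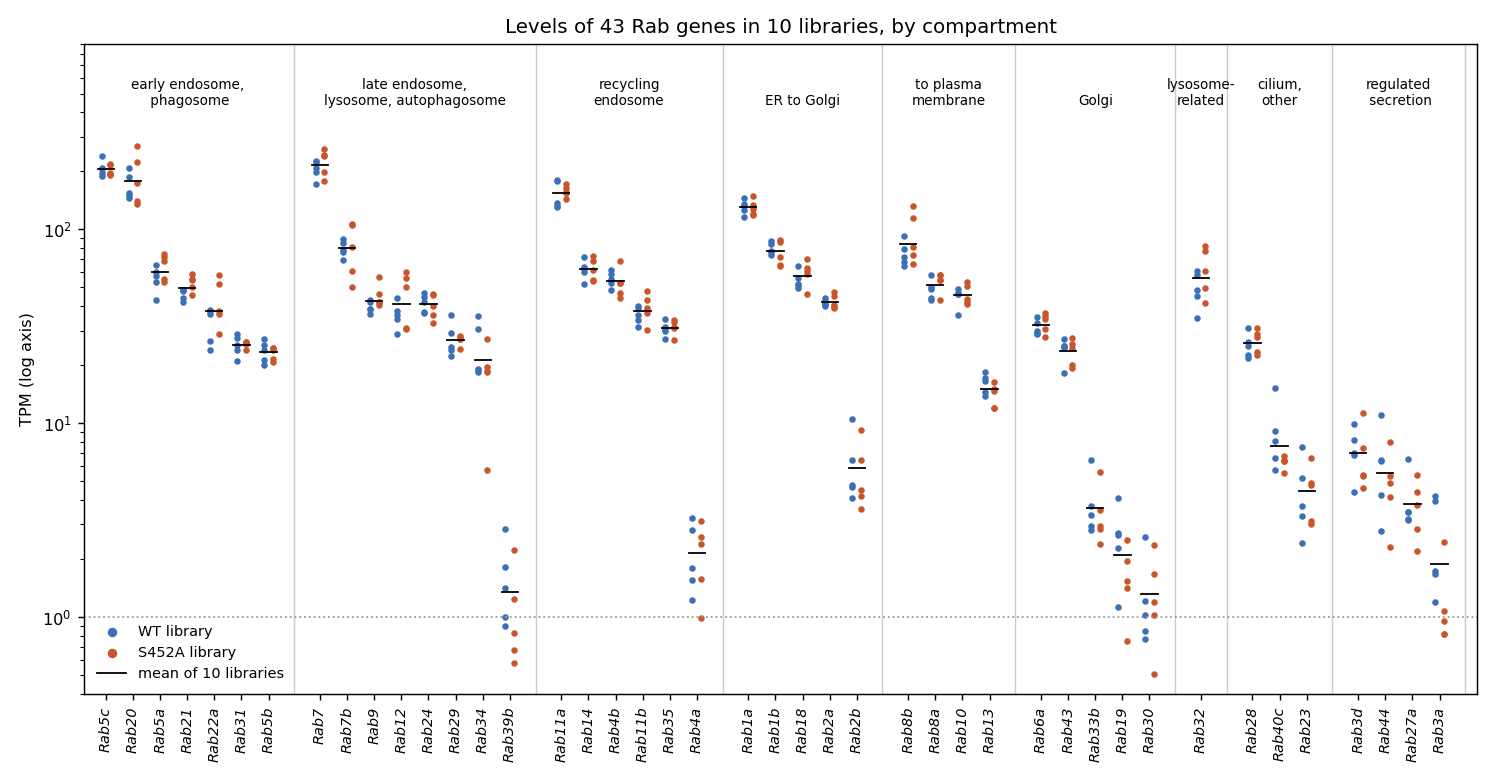
TPM (log axis) of the 43 Rab genes above the filter in each of 10 libraries, grouped by compartment. Points are libraries (blue WT, orange S452A), black bars are means of 10 libraries, and the dotted line is 1 TPM. Rab7, Rab5c, Rab20, Rab11a and Rab1a lie above 100 TPM, and the 4 genes of regulated secretion lie below 10 TPM on average.

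Each Rab was placed in 1 compartment, by its best known site. Early endosome and phagosome Rabs held the most transcripts, 27.9% of the summed Rab TPM on average (26.1 to 29.4% per library). Late endosome, lysosome and autophagosome Rabs held 22.6% (21.4 to 23.3%) and recycling endosome Rabs 16.5% (15.3 to 17.5%). Rabs of the step from endoplasmic reticulum (ER) to Golgi held 15.1% (13.8 to 16.4%) and those of transport to the plasma membrane 9.44% (8.73 to 10.6%). The remaining shares were 3.04% for the Golgi, 2.67% for lysosome-related organelles, 1.85% for cilium and other sites, and 0.90% for regulated secretion (0.51 to 1.54%). With this placement, the libraries' ranges did not overlap between early and late endosomal shares or between late and recycling endosomal shares. Those of recycling endosome and ER to Golgi overlapped. The order of the early and late lists depends on the placement of Rab20. It averaged 178 TPM of the early sum of 578 TPM, and the late list summed to 467 TPM.

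**Figure D2:**
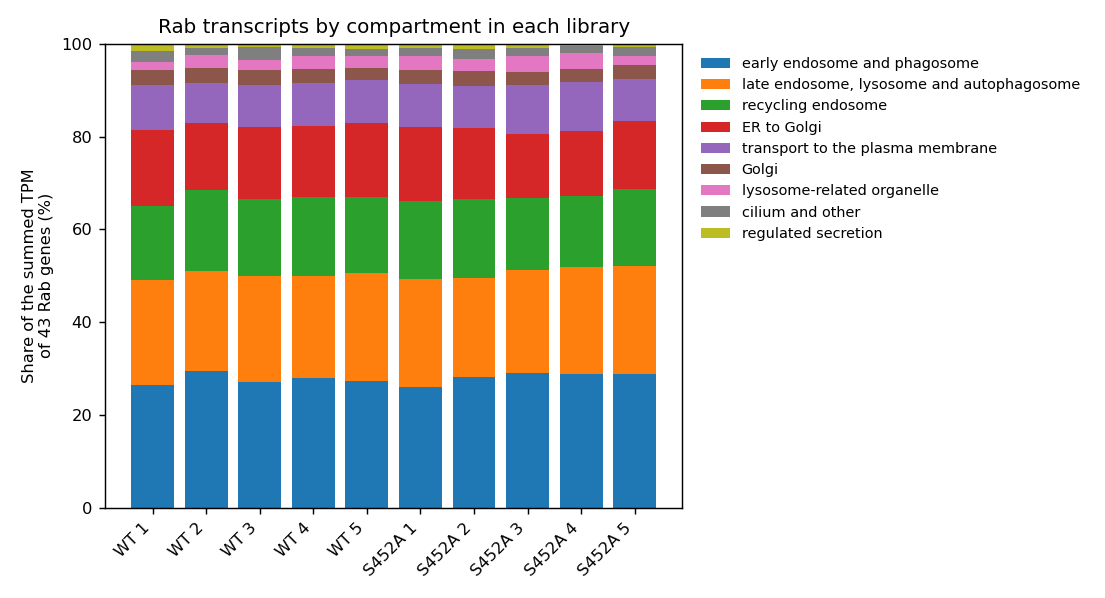
Share (%) of the summed TPM of 43 Rab genes taken by each compartment, as stacked bars for 5 WT and 5 S452A libraries. The order of the large compartments is nearly the same in every library, with early endosome and phagosome Rabs at 26.1 to 29.4%.

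On early endosomes and phagosomes, Rab5c and Rab20 led. Rab5c, one of the Rab5 forms that govern fusion of early endosomes (chromosome 11, 100715009 to 100738215, minus strand, GRCm38), was at 193.55, 236.98, 187.29, 205.24 and 207.63 TPM in WT libraries 1 to 5. The S452A libraries gave 215.57, 193.18, 191.02, 195.41 and 213.89 TPM in the same order, as for all members below. These values spread little, and the S452A range lay within the WT range. Within the Rab5 forms, Rab5c took 71.0% of the TPM (66.4 to 75.5% per library), Rab5a 20.9% and Rab5b 8.07%. Rab20, which works in phagosome maturation (chromosome 8, 11453518 to 11478710, minus strand), was at 150.34, 186.57, 153.45, 205.95 and 145.41 TPM in WT and at 138.92, 135.2, 268.71, 222.56 and 173.05 TPM in S452A. Rab20 was highest in S452A libraries 3 and 4 and WT library 4, and its S452A range enclosed the WT range. The other members here were Rab5a (60.3 TPM on average), Rab21 (49.6), Rab22a (37.7), Rab31 (25.4) and Rab5b (23.2). Rab17, an epithelial Rab, stayed below the filter.

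Among Rabs of late endosomes and lysosomes, Rab7 had the highest mean level of all members. Rab7, which drives fusion of late endosomes, phagosomes and autophagosomes with lysosomes (chromosome 6, 87999106 to 88045270, minus strand), was at 169.91, 224.82, 196.4, 221.03 and 206.33 TPM in WT and at 242.35, 177.22, 237.32, 258.86 and 196.08 TPM in S452A. Rab7b, a relative of Rab7 that acts between late endosomes and the Golgi, was at 85.02, 76.6, 69.44, 89.06 and 77.94 TPM in WT and at 60.61, 50.35, 105.36, 80.73 and 106.31 TPM in S452A. The S452A libraries were both the lowest and the highest for Rab7b. The others were Rab9 (42.7 TPM), which returns cargo from late endosomes to the Golgi, Rab12 (40.9), which moves receptors to lysosomes, Rab24 (40.9), linked to autophagy, Rab29 (27.0), a partner of the kinase LRRK2, Rab34 (21.1), a Rab of macropinosomes and cilium formation, and Rab39b (1.35). Rab39, Rab42 and Rab9b did not pass the filter, and Rab9b was listed at 0 in every library.

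Rab11a, the main Rab of recycling endosomes, was at 129.7, 178.09, 131.63, 176.9 and 136.36 TPM in WT and at 156.04, 152.76, 170.34, 163.23 and 143.47 TPM in S452A. The S452A values lay within the WT range. Rab14, which acts between endosomes and the Golgi, was at 52.33, 60.39, 63.67, 71.93 and 62.21 TPM in WT and at 72.7, 61.19, 68.64, 54.71 and 53.94 TPM in S452A. Rab4b (54.1 TPM on average) stood far above its near relative Rab4a (2.13), taking 96.2% of their sum, and Rab11a took 80.1% of the sum of Rab11a, Rab11b and Rab25. Rab35, of fast recycling, averaged 31.0 TPM. Rab15 and Rab25 did not pass the filter.

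Rab1a and Rab1b, which start transport from the ER to the Golgi, were both abundant. Rab1a was at 131.93, 115.69, 124.73, 143.92 and 135.37 TPM in WT and at 133.24, 118.65, 147.4, 126.49 and 119.42 TPM in S452A. Rab1b was at 83.74, 86.4, 73.58, 76.16 and 77.33 TPM in WT and at 87.88, 64.48, 65.58, 71.71 and 85.35 TPM in S452A. Rab1a was above Rab1b in every library and took 57.2 to 69.2% of their sum. Rab18, of the ER and lipid droplets, averaged 57.3 TPM, Rab2a 42.1 and Rab2b 5.85. The genes of the Golgi itself were lower. Rab6a, of retrograde Golgi traffic, was at 29.8, 35.09, 29.04, 32.64 and 28.7 TPM in WT and at 34.3, 35.45, 36.81, 30.51 and 27.81 TPM in S452A. Rab43, which also acts at the Golgi, was at 24.98, 27, 25.01, 24.35 and 18.21 TPM in WT and at 24.45, 19.32, 19.97, 25.46 and 27.48 TPM in S452A. Both genes overlapped between genotypes, Rab43 with its lowest value in WT library 5. Rab33b (3.66 TPM), Rab19 (2.10) and Rab30 (1.32) were near the filter, and Rab6b, Rab33a and Rab36 were below it.

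For delivery to the plasma membrane, Rab8b was at 67.92, 79.36, 64.63, 92.3 and 72.14 TPM in WT and at 80.48, 65.89, 131.04, 114.53 and 73.12 TPM in S452A. Rab8b (chromosome 9, 66843664 to 66919687, minus strand) was highest in S452A libraries 3 and 4 and WT library 4, the libraries in which Rab20 was also highest. Rab8a, its close relative, was at 57.74, 44.29, 49.3, 50.09 and 42.94 TPM in WT and at 58.12, 43.05, 54.73, 58.15 and 54.63 TPM in S452A. Rab10, known from glucose transporter vesicles, averaged 45.6 TPM and Rab13, known from epithelial junctions, 15.0 TPM. Of the pair of Rabs of lysosome-related organelles, Rab32 (chromosome 10, 10545002 to 10558265, minus strand), also a phagosome Rab, was at 34.87, 58.22, 45.13, 61.04 and 48.28 TPM in WT and at 60.95, 49.98, 82.2, 77.3 and 41.69 TPM in S452A. Rab38, its relative in pigment cells, reached at most 0.74 TPM.

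The Rabs of regulated secretion were low throughout, including those of cytotoxic granules. Rab3d, of secretory granules, was at 9.87, 6.84, 6.98, 4.42 and 8.19 TPM in WT and at 5.32, 11.24, 7.4, 5.38 and 4.65 TPM in S452A. Rab44, a large Rab of granulated leukocytes, was at 11, 6.4, 2.79, 6.42 and 4.28 TPM in WT and at 5.33, 4.92, 8.03, 2.3 and 4.14 TPM in S452A. Rab27a averaged 3.84 TPM and Rab3a 1.89 TPM. Rab3b, Rab3c, Rab26, Rab27b and Rab37 did not pass the filter. In the last group, Rab28, of the cilium, was at 26.24, 22.38, 30.88, 24.9 and 21.68 TPM in WT and at 23.17, 30.95, 28.78, 22.49 and 27.7 TPM in S452A. Rab40c, a Rab that binds a ubiquitin ligase, averaged 7.62 TPM and Rab23, a regulator of Hedgehog signalling, 4.46 TPM. Over all 16 members below the filter, the highest mean was 0.65 TPM (Rab6b) and the highest single value 2.25 TPM (Rab25 in S452A library 3).

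Several Rab genes share sequence with other annotated transcripts, so part of their reads could be assigned elsewhere. Rab11b-ps2 is 99.8% identical to Rab11b over 654 bases and averaged 42.8 ± 9.35 TPM in WT against 37.5 ± 6.29 TPM in S452A (SD, n = 5), much like Rab11b itself (36.1 ± 3.79 and 39.5 ± 6.67 TPM). Rab7-ps1 is 98.4% identical to Rab7 over 622 bases, at 76.2 ± 12.1 and 83.5 ± 10.98 TPM. Gm13991 is 99.4% identical to Rab5b and Gm5865 96.4% identical to Rab2a, and they took 39.5% and 30.1% of the sum with their gene. Gm20689, a short transcript identical to 279 bases of Rab8b, averaged 86.8 ± 4.72 TPM in WT against 125 ± 46.7 TPM in S452A, and Rab6a and Rab43 have copies with 13.5% and 23.0% of the sum. Rab24 shares 830 bases with its neighbour Prelid1 (220 TPM on average), Rab6a shares 409 with Mrpl48 and Rab20 shares 357 with E230013L22Rik (9.73 TPM). The levels of these genes are uncertain to that extent.

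No Rab gene differed between genotypes beyond the spread between mice. Differences are of log2(TPM + 1), S452A minus WT, a scale that shrinks the changes of low genes, and were tested with limma over all 13930 genes at an adjusted p under 0.05. None of the 43 members passed, where 0.00718% of all genes did. None had an unadjusted limma p under 0.05, against 4.74% of all genes (2.01% toward higher and 2.73% toward lower), and for none did the genotypes' libraries fail to overlap, against 0.646%. The smallest adjusted p of a member was 0.952. Of the 43 differences, 23 were above 0 (53.5%, against 46.6% of all genes) and 20 below, with a median of 0.01 against -0.02 over all genes. In size, 32 were smaller than 0.2 either way, a count not made over all genes. The 95% interval excluded a 2-fold change of TPM + 1 for 41 members (95.3%, against 86.9% of all genes). It excluded a 1.5-fold change of TPM + 1 for 27, a count not made over all genes. For the lowest members, such as Rab39b, a 2-fold change of TPM itself was not excluded. A change below those bounds was not excluded.

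**Figure D3:**
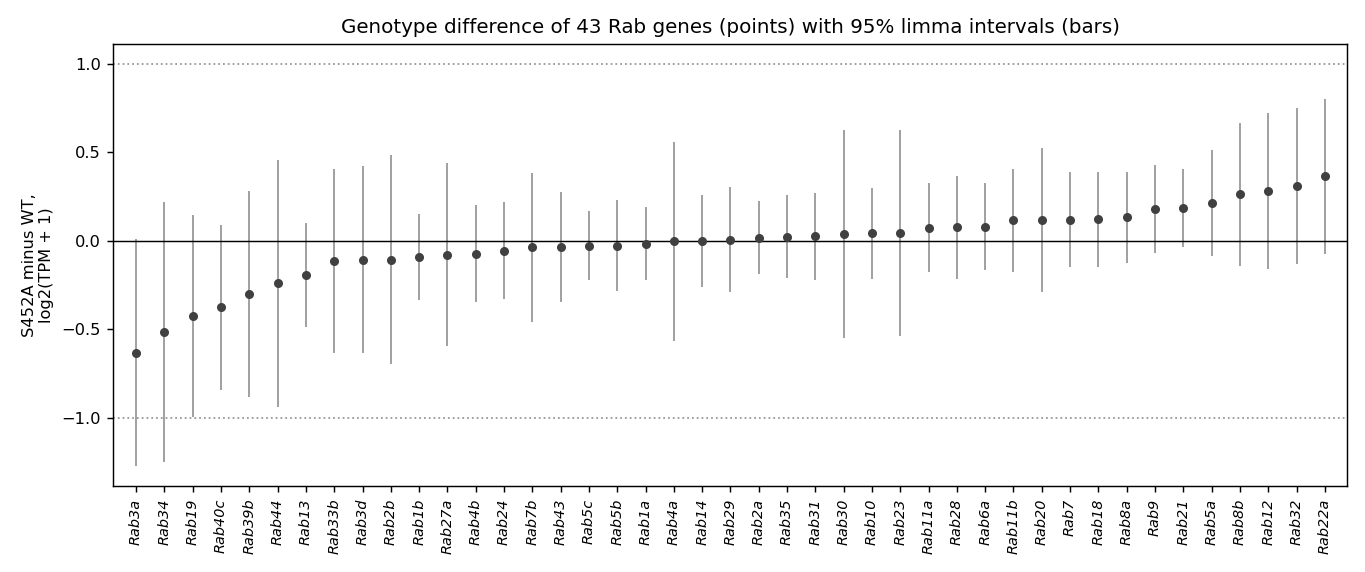
Genotype difference (S452A minus WT, log2(TPM + 1)) of each of 43 Rab genes as a point, with its 95% limma interval as a bar, ordered by size. Dotted lines mark a 2-fold change of TPM + 1, and only the intervals of Rab3a and Rab34 reach past one of them. Every interval includes 0.

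The 4 members with the smallest p on the higher side came from the early and late endosome lists. Those lists hold 7 and 8 of the 43 members, of which 2 and 4 had a difference below 0. Rab21, which carries integrins through early endosomes, was at 48.76, 48.81, 47.79, 41.93 and 44.28 TPM in WT and at 54.44, 50.5, 45.74, 58.74 and 55.21 TPM in S452A. Of the S452A libraries, 4 lay above every WT library, and the difference was 0.19 (SE 0.10, limma adjusted p = 0.952). Rab22a, an early endosomal relative of Rab5, was at 23.81, 36.51, 37.92, 38.1 and 26.48 TPM in WT and at 28.86, 36.55, 58.2, 52.16 and 38.03 TPM in S452A, 0.36 higher in S452A on average (SE 0.20, limma adjusted p = 0.952, with an interval from -0.08 to 0.80). Only S452A libraries 3 and 4 exceeded the WT range. Rab9 was at 36.35, 38.76, 38.72, 43.19 and 42.13 TPM in WT and at 40.64, 42.19, 56.77, 46.21 and 41.9 TPM in S452A, a difference of 0.18 (SE 0.11). Rab5a was at 43.01, 57.3, 53.3, 65.2 and 59.84 TPM in WT and at 55.21, 68.78, 72.11, 74.29 and 53.55 TPM in S452A, a difference of 0.21 (SE 0.14). Both overlapped between genotypes and had a limma adjusted p of 0.952, and S452A library 3 was the highest for Rab9. Without it the Rab9 difference was 0.10, and without WT library 1, its lowest library, the Rab5a difference was 0.13.

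On the lower side the 4 of smallest p were less abundant. Rab3a, a Rab of neuronal and endocrine vesicles, was at 1.67, 1.73, 1.2, 4.2 and 3.96 TPM in WT and at 2.45, 0.95, 0.82, 1.07 and 0.82 TPM in S452A, a difference of -0.63 (SE 0.29, limma adjusted p = 0.952). WT libraries 4 and 5 were high, and S452A library 1 lay above the other 3 WT libraries. Rab19 was at 4.09, 2.28, 2.66, 2.72 and 1.12 TPM in WT and at 0.75, 1.53, 2.5, 1.41 and 1.95 TPM in S452A, a difference of -0.43 (SE 0.26). Rab40c was at 9.1, 5.76, 15.09, 8.06 and 6.61 TPM in WT and at 6.73, 6.47, 5.51, 6.41 and 6.41 TPM in S452A, a difference of -0.38 (SE 0.21), with WT library 3 the highest. Without that library the Rab40c difference was -0.18, and with the fibroblast marker mean as a covariate it was -0.03. Rab34 was at 18.91, 18.35, 35.63, 18.85 and 30.43 TPM in WT and at 19.39, 27.2, 5.75, 18.38 and 18.49 TPM in S452A, a difference of -0.52 (SE 0.34). Its highest value, in WT library 3, and its lowest, in S452A library 3, fell in the libraries with the highest and the lowest fibroblast marker mean (4.26 and 2.89 as log2(TPM + 1)). Libraries between these ends did not keep that order. WT library 5 had 30.43 TPM at a fibroblast mean of 3.51, and WT library 4 had 18.85 TPM at 3.93. Without S452A library 3 the Rab34 difference was -0.18, and with the fibroblast mean as a covariate it turned to 0.10 (limma adjusted p = 0.997).

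The partners of the Rab cycle did not pass between genotypes either. Of 12 tested genes of GDP dissociation inhibitors and prenylation, 46 exchange factors, 34 GTPase-activating proteins and 53 effectors, 0 passed. Unadjusted limma p was under 0.05 for 0, 4, 1 and 2 of them (0%, 8.70%, 2.94% and 3.77%, against 4.74% of all genes). Median differences were -0.05, -0.04, 0.10 and 0.03 in that order, against -0.02 over all genes, and 4 of 12, 21 of 46, 25 of 34 and 36 of 53 were above 0 (33.3%, 45.7%, 73.5% and 67.9%, against 46.6% of all genes). Hps4, which with Hps1 forms the exchange factor of Rab32 and Rab38, averaged 17.0 ± 3.59 TPM in WT against 8.92 ± 2.13 TPM in S452A (SD, n = 5), a difference of -0.86 (SE 0.19, limma adjusted p = 0.847). Rabgef1, an exchange factor of Rab5, was at 85.0 ± 18.4 and 120 ± 25.95 TPM, a difference of 0.49 (SE 0.17). Tbc1d15, which inactivates Rab7, was at 44.7 ± 6.75 and 61.1 ± 7.52 TPM (0.45, SE 0.13), and the Rab5 effector Rabep1 at 24.0 ± 1.31 and 29.5 ± 2.85 TPM (0.29, SE 0.11). The last 3 had a limma adjusted p of 0.952. The effector Rab11fip1, at 52.1 ± 14.2 and 72.8 ± 21 TPM, differed by 0.47, the genes of the prenyl-protein processing enzymes Icmt and Rce1 by -0.31 and -0.20, and the GTPase-activating protein gene Sgsm3 by -0.50 (limma adjusted p = 0.952 for each).

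The libraries also differed in transcripts of cell types and of the NF-kB response, and the Rab genes were set against 3 such measures. Each was the mean log2(TPM + 1) of a list, fitted in limma over all genes with genotype as a further term. A slope is the change in log2(TPM + 1) of a gene per unit of that mean. The genes of each list were themselves among the genes fitted, which can raise the share of all genes that passed on its mean. The T cell gene mean ran from 1.16 (WT library 2) to 4.02 (S452A library 3), a wide range. None of the 43 Rab genes passed on it, where 0.258% of all genes did (0.215% toward higher and 0.0431% toward lower). An unadjusted limma p under 0.05 was found for 2, both toward higher (4.65%, against 5.01% of all genes, of which 3.26% toward higher and 1.75% toward lower). Those were Rab19 (slope 0.29, SE 0.11, limma adjusted p = 0.869) and Rab28 (0.14, SE 0.06, limma adjusted p = 0.967). Toward lower, Rab5c and Rab3a had slopes of -0.07 and -0.23. Rab27a, the Rab of lytic granules, had a slope of 0.12 (SE 0.12, limma adjusted p = 1), and its highest value, 6.53 TPM, was in WT library 1, where the T cell gene mean was 3.23. Among partners, Tbc1d10c (0.56, SE 0.12, limma adjusted p = 0.136), Rabgap1l, Dennd2d, Dennd4b, Sytl3, Exoc6b, Rce1 and Rabggtb had the smallest p of their lists, and 0 passed.

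The fibroblast gene mean ran from 2.89 (S452A library 3) to 4.26 (WT library 3). On it 0 Rab genes passed, where 0.00718% of all genes did, and 5 had an unadjusted limma p under 0.05 (11.6%, against 9.49% of all genes), 3 toward higher (against 7.6%) and 2 toward lower (against 1.9%). Rab34 had the steepest slope, 1.45 (SE 0.46, limma adjusted p = 0.365), which was 0.64 without S452A library 3. Rab40c had a slope of 0.80 (SE 0.32, limma adjusted p = 0.466), which was 0.36 without WT library 3. The third member toward higher was Rab4a, a low gene, with 0.92 (SE 0.39, limma adjusted p = 0.502). Rab34 was lowest and Rab7b near its highest in S452A library 3. On the lower side, Rab7b had a slope of -0.77 (SE 0.28, limma adjusted p = 0.417) and Rab11b of -0.46 (SE 0.20, limma adjusted p = 0.512). Rab11b was at 39.42, 33.79, 31.12, 40.14 and 36.24 TPM in WT and at 36.91, 30.29, 48.14, 39.33 and 42.91 TPM in S452A, highest in S452A library 3 and lowest in S452A library 2. In the partner lists 0 passed, and St5, Rgp1, Rabggtb, Evi5, Tbc1d9b, Micall2 and Rabep2 were among those of smallest p.

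Rab8b, Rab32 and Rab20 rose with the NF-kB gene mean. This mean was taken over 20 genes of the NF-kB and TNF response, such as Tnf, Il1b, Nfkbia and Tnfaip3, which inflammatory signals induce in macrophages. It was 7.69, 8.18, 7.89, 8.38 and 7.94 in WT libraries 1 to 5 and 8.16, 7.84, 8.68, 8.66 and 7.99 in S452A libraries 1 to 5, so that S452A libraries 3 and 4 and WT library 4 were highest. The slope was 0.96 for Rab8b (SE 0.14, limma adjusted p = 0.00807), 1.02 for Rab32 (SE 0.17, limma adjusted p = 0.0138) and 0.91 for Rab20 (SE 0.17, limma adjusted p = 0.0212). Across the range of the mean, from WT library 1 to S452A library 3, Rab8b went from 67.92 to 131.04 TPM, Rab32 from 34.87 to 82.2 TPM and Rab20 from 150.34 to 268.71 TPM. These 3 are 6.98% of the members, all toward higher, where 2.87% of all genes passed, 2.43% toward higher and 0.438% toward lower. That background is not matched for level, and the members are more abundant than most genes. With a filter at 5 TPM in 5 libraries, 3 of 34 members and 530 of 9998 genes passed. Rab8b passed without any 1 of the 10 libraries in turn (limma adjusted p from 0.0125 to 0.0474). Rab32 did not pass without S452A library 3 (0.0572), and Rab20 did not pass without WT library 4 (0.0593) or S452A library 2 (0.08), 3 (0.103) or 4 (0.0643).

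**Figure D4:**
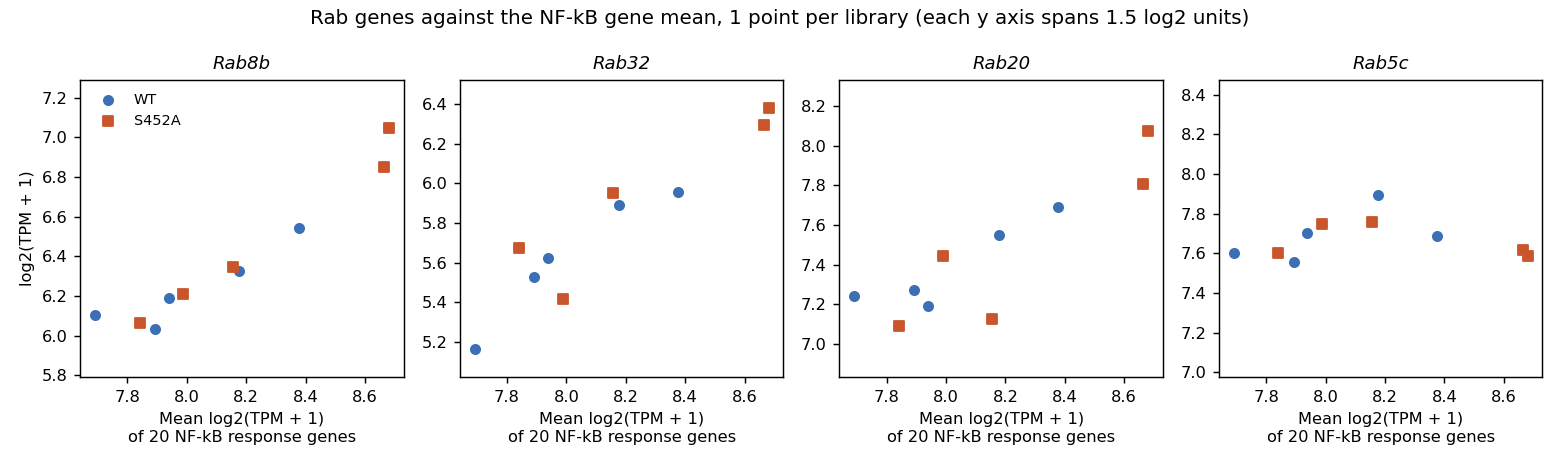
log2(TPM + 1) of Rab8b, Rab32, Rab20 and, for contrast, Rab5c against the mean log2(TPM + 1) of 20 NF-kB response genes, 1 point per library (blue circles WT, orange squares S452A), each y axis spanning 1.5 units. The first 3 rise along the axis to S452A libraries 3 and 4 at 8.68 and 8.66, and Rab5c does not (slope 0.02).

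Other members had larger p-values and did not pass. An unadjusted limma p under 0.05 was found for 14 members (32.6%, against 19.1% of all genes). Of these, 12 had a slope toward higher (27.9%, against 10.7% of all genes) and 2 toward lower (4.65%, against 8.38%). Beside the 3 that passed, these were Rab7 (slope 0.52), Rab22a (0.83), Rab12 (0.77), Rab33b (0.98), Rab5a (0.46), Rab11a (0.40), Rab10 (0.39), Rab18 (0.39) and Rab9 (0.35) on the higher side, and Rab24 (-0.41) and Rab34 (-1.18) on the lower. Their limma adjusted p ran from 0.0681 for Rab7 to 0.248 for Rab9. With the filter at 5 TPM in 5 libraries, unadjusted limma p was under 0.05 for 13 of 34 members and 2291 of 9998 genes. The median slope of the members was 0.12, against -0.03 over all genes, with 27 of 43 above 0 (62.8%, against 47.3% of all genes). Rab5c (0.02) and Rab1b (-0.11), both abundant, had slopes near 0. Cell type markers also moved across the same libraries. S452A library 3 had the lowest fibroblast mean (2.89) and the highest T cell mean (4.02), and the mean of the 4 tested neutrophil markers was highest there (4.21). It was next in S452A library 2 (3.96), which had a low NF-kB mean, then in WT library 4 (3.89), which had a high one. In S452A library 4, where the NF-kB mean was also high (8.66), the neutrophil mean was 3.45. The neutrophil mean was lowest in WT library 5 (2.82) and WT library 1 (2.84), the latter with the lowest NF-kB mean. The macrophage marker mean lay between 9.56 and 9.96 in all 10 libraries. With the fibroblast mean as a further term, Rab8b, Rab32 and Rab20 still passed (slopes 0.90, 1.05 and 0.84), as they did with the T cell mean (0.96, 1.02 and 0.91). The part of neutrophil transcripts in these slopes was not tested.

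Some genes listed as exchange factors or effectors of Rabs also passed on this measure, where 2.87% of all genes did and 2.43% did toward higher. Of 46 genes listed as exchange factors, 3 rose with the NF-kB mean and 0 fell (6.52%). The 3 were C9orf72 (slope 0.79, limma adjusted p = 0.0212), Smcr8 (0.77, 0.033) and Rabgef1 (0.79, 0.0363). C9orf72 and Smcr8 form a complex, so the counts per list depend on the list in which that complex is placed. Of 53 effectors, 4 rose and 0 fell (7.55%). They were Rab11fip1, an effector of Rab11 (1.11, limma adjusted p = 0.00566), Rilpl2, which binds phosphorylated Rab8 and Rab10 (0.89, 0.029), Optn, an autophagy receptor that binds Rab8 (1.40, 0.0426), and Plekhm2, which links lysosomes to kinesin (1.02, 0.0426). Rab11fip1 and Rilpl2 were well expressed, with averages of 52.1 and 181 TPM in WT against 72.8 and 213 TPM in S452A. None of the 34 genes listed as GTPase-activating proteins, or of the 12 genes of inhibition and prenylation, passed. The smallest p belonged to Rab3gap2 (0.62) and Tbc1d2b (0.93) in the former and to Fnta (-0.52) and Rce1 (-0.41) in the latter, with limma adjusted p from 0.0668 to 0.374. Of the GTPase-activating proteins, 27 of 34 had a slope above 0 (79.4%, against 47.3% of all genes), with a median of 0.23.

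The sequences upstream of Rab8b, Rab32 and Rab20, the members that passed, are shown to let their start regions be compared. They are the 250 bases before the RefSeq start in GRCm38.p6, read on the minus strand, at chr9:66919706-66919955, chr10:10558208-10558457 and chr8:11478641-11478890, with the motifs found in capitals.
Rab8b: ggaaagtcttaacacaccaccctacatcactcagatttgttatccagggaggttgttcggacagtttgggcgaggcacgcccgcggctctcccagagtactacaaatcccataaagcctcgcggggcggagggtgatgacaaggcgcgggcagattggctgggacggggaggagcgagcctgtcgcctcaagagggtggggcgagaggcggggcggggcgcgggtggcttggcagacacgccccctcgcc
Rab32: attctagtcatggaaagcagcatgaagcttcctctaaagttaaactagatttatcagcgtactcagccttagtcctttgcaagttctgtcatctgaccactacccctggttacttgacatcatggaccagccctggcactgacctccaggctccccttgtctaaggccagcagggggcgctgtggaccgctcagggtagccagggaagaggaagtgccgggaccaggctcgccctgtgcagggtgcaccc
Rab20: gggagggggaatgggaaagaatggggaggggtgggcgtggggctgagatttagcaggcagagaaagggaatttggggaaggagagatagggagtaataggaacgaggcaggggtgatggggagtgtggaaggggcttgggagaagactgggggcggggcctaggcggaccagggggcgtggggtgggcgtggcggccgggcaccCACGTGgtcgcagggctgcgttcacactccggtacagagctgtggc
Their GC content was 64.4%, 55.6% and 65.2%, against a median of 61.8% over the 46 RefSeq promoters of 37 members and 52.4% over all 32851 promoters. Rab7b, Rab18, Rab2a, Rab44, Rab4a and Rab30 had no entry. The 3 motifs below were searched on both strands, none of them contained in another: the NF-kB consensus, the E-box CACGTG and the core of the cyclic AMP response element, TGACGTCA. In these 3 windows the only match was an E-box of Rab20, 46 to 41 bases before the start (positions -46 to -41). An E-box lay in the window of 5 of 37 members (Rab20, Rab21, Rab23, Rab27a and Rab5a), which is 10.9% of their 46 promoters, against 6.02% of all promoters. The NF-kB consensus was found for Rab28 (2.17% of the members' promoters, against 3.9% of all) and the cyclic AMP element for Rab5a (2.17%, against 1.55%).

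Most pairs of Rab genes that varied closely together over the 10 libraries came from different compartments, as did most pairs of any r (804 of 903). Of 903 pairs of members, 42 had a Pearson r above 0.7 (4.65%) and 9 below -0.7, where 2.34% and 1.89% of all pairs of tested genes did. The median r was 0.01 for both, so the members did not move as a block. Among genes of at least 20 TPM, 8.97% of the 435 member pairs were above 0.7, against 3.89% of all pairs, with a median of 0.13 against 0.01. All these pairs share the same 10 libraries and a fixed TPM total, so they are a description. Of the 99 pairs within a compartment 2 were above 0.7 (2.02%), and of the 804 between compartments 40 were (4.98%), with medians of 0.05 and 0.01.

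**Figure D5:**
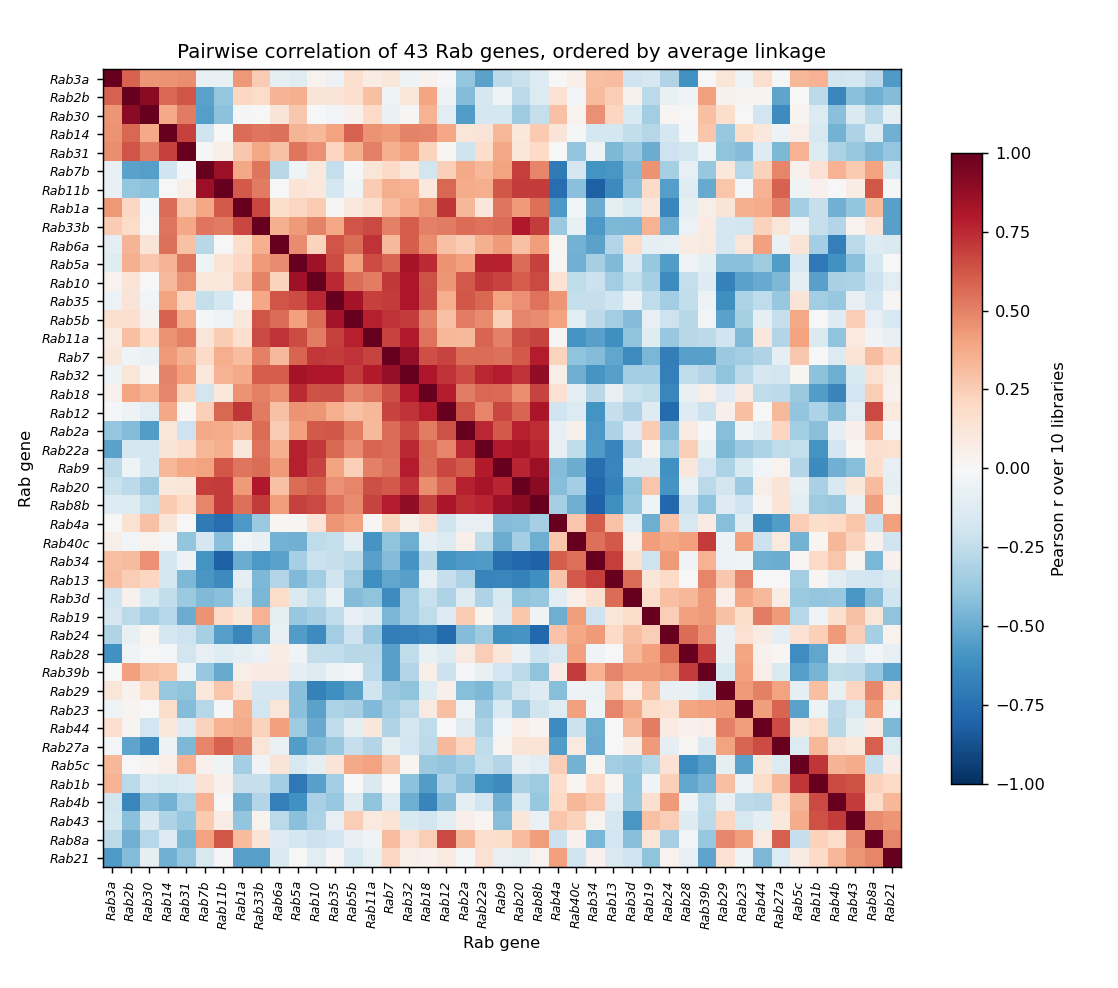
Pearson r over 10 libraries for each pair of 43 Rab genes (colour scale from -1 to 1), ordered by average linkage. A block of positive r from Rab5a to Rab8b holds Rab8b, Rab32, Rab20 and Rab7, and Rab34 and Rab24 run against it.

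Rab32 and Rab8b had the most partners, with 11 and 8 other members above 0.7, followed by Rab22a with 7 and Rab20 with 6. The closest pairs were Rab2b with Rab30 (r = 0.91), both low, Rab20 with Rab8b (0.91), Rab8b with Rab32 (0.89), Rab7 with Rab32 (0.88), Rab8b with Rab9 (0.85) and Rab7b with Rab11b (0.85). Opposed pairs were Rab11b with Rab34 (-0.82), Rab8b with Rab34 (-0.81) and Rab8b with Rab24 (-0.79). These were picked as the ends of 903 values over 10 libraries. Centred on genotype means, the range of r was -0.80 to 0.92, and Rab20 with Rab8b stood at 0.92.

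No correlation between close relatives passed. For the 11 pairs with both genes above the filter, p-values were adjusted over the pairs. Rab1a and Rab1b had a Pearson r of -0.23 (permutation p = 0.515, adjusted p = 0.644) and a Spearman rho of -0.139 (permutation p = 0.708, adjusted p = 0.892), and without the 2 farthest libraries r was 0.316. Rab8a and Rab8b had an r of 0.421 (permutation p = 0.228, adjusted p = 0.644) and a rho of 0.539 (permutation p = 0.113, adjusted p = 0.892), with 0.234 left without the 2 farthest libraries. Rab2a and Rab2b had the lowest r, -0.436 (permutation p = 0.203, adjusted p = 0.644), with a rho of -0.261 (permutation p = 0.47, adjusted p = 0.892) and -0.283 without the 2 farthest. The other 8 pairs lay between -0.202 for Rab3a and Rab3d and 0.41 for Rab5a and Rab5b, with an adjusted permutation p of 0.644 for each. Their rho lay between -0.219 and 0.358 (adjusted permutation p from 0.892), and their r without the 2 farthest libraries between -0.583 and 0.515. With 10 libraries, such values do not show that relatives vary independently.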

How the data were processed

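Bulk RNA of cells sorted as CD8+ T cells was measured in 10 libraries, 5 WT and 5 S452A, per the labels. The submitters' processing notes name STAR 2.7.9a, RSEM 1.3.0 and GRCm38.p6, and the sources used here state neither the annotation release nor the strand setting. The values the authors deposited are TPM, which sum to 1000000 per library and keep no depth, so a rise in some transcripts lowers the TPM of others. Columns were matched through the sample descriptions. The labels number separate mice, so p-values are set against the spread between mice.

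Genes reaching 1 TPM in at least 5 libraries were fitted as log2(TPM + 1) with limma 3.58.1 in R 4.3.3 (lmFit, eBayes with a trend, 2-sided, Benjamini-Hochberg over 13930 genes, threshold 0.05), with genotype alone or with genotype and a list mean. The fit was also run on simulated data, with independent noise for each gene and the T cell mean for slopes. That run does not cover the covariation of real genes or the NF-kB mean, and its outcome is not given here. Correlations of relatives used 100000 resamples. Positions and biotypes came from GENCODE M21 (GRCm38), in which all 59 members matched by versioned identifier, and near-identical copies from blastn 2.17.0 (95% identity or more, across 0.8 or more of the shorter sequence). Promoter sequences are RefSeq's (GRCm38.p6). The rest was done in Python 3.11.15 with pandas 2.3.3, scipy 1.17.1, numpy 2.4.6 and matplotlib 3.10.9.

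Members and lists were chosen with earlier results of these data known. Values per library are given for the 2 highest members of each compartment and for those with the smallest p: 4 per direction between genotypes, and on each list mean those that passed or else 2 per direction. Partner genes named are those that passed and the 2 of smallest p per list, of which 1 is not reported here. Others were named after their values were seen.

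Alternatives were pseudocounts of 0.1 and 5, no filter, a filter at 5 TPM, quantile normalization, division by a median-ratio factor, leaving out each library, a mouse-number block, list means as covariates and no genotype term. Summing copies and a second list mean were added after the data were seen.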

Additional observations from a re-analysis of the deposited data

Results flagged for a closer look

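In 9 of 86 groups of 5 libraries (43 Rab genes in 2 genotypes), the lowest or highest library stood apart from the other 4, with a gap to its neighbour of more than 0.71 of the group's range. For independent, normally distributed values about 1 in 20 such groups would be flagged. The 43 genes share the same libraries, so the groups are not independent, and the share over all genes was not computed. Low values were Rab8a at 43.05 TPM in S452A library 2 (the next was 54.63), Rab10 at 36.06 TPM in WT library 1 (46.06), Rab29 at 24.06 TPM in S452A library 3 (27.13), Rab31 at 23.69 TPM in S452A library 4 (25.7) and Rab40c at 5.51 TPM in S452A library 3 (6.41). High values were Rab27a at 6.53 TPM in WT library 1 (3.49), Rab33b at 6.47 TPM and Rab30 at 2.58 TPM in WT library 4 (3.72 and 1.21), and Rab3a at 2.45 TPM in S452A library 1 (1.07).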

How the results depend on the processing

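The count of Rab genes that passed between genotypes, on the T cell mean and on the fibroblast mean was 0 under every alternative run, and the count of relatives' correlations that passed was also 0. Over all genes, the limma count on the T cell mean was 36 and lay between 14 and 31 without 1 library, 14 with no filter and 0 with the block, and the count on the fibroblast mean was 1 and lay between 0 and 5. On the NF-kB mean 3 Rab genes passed, and 1 to 4 did so without 1 library in turn (1, Rab8b, without S452A library 3). Without a genotype term 5 passed, Rab7 and Rab22a being the further ones. The count of all genes on this mean was 400, 99 to 358 without 1 library, 222 with no filter and 787 without a genotype term. The mouse number shared by WT and S452A libraries is not said in the labels to mark a shared animal, litter or day, and same-numbered libraries' deviations correlated at -0.148 to 0.0743, each below the highest with another number. With the number as a replicate block 0 Rab genes, and 0 of all genes against 400, passed on the NF-kB mean, while the slopes of Rab8b, Rab32 and Rab20 were 1.05, 1.12 and 0.88. With 10 libraries, the added block terms leave little from which to estimate error. The loss of calls therefore cannot tell unstable slopes from low power. Between genotypes the block changed no call. Of the named values, the Rab34 difference turned from -0.52 to 0.10 with the fibroblast mean as a covariate, and the cause was not tested. With that covariate Rab40c moved from -0.38 to -0.03 and Rab9 from 0.18 to 0.07. With the NF-kB mean as a covariate Rab22a moved from 0.36 to 0.16, Rab5a from 0.21 to 0.10, Rab9 to 0.09 and Rab34 to -0.22. Differences of the low genes Rab3a and Rab19 moved with the pseudocount (-0.96 and -0.27 for Rab3a at 0.1 and 5, -0.19 for Rab19 at 5). On the T cell mean the Rab5c slope of -0.07 was -0.04 without WT library 2, and the Rab3a slope of -0.23 was -0.38 without WT library 2 and -0.14 without S452A library 1. Depth is unknown, so no counting error can be given.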
